A study of Mus musculus with 24 samples.

Results

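The genes described here are 10 genes of the integrated stress response, the pathway that ends in the transcription factor ATF4, in perigonadal fat of male mice. They are Atf4, Ddit3, Trib3, Ppp1r15a, Asns, Psat1, Phgdh, Slc7a5, Slc7a11 and Chac1. They were found by gene symbol among the 24647 genes that the array annotation names, each read from its transcript cluster of highest mean, and 9 of the 10 were measured above the low-value limit of the comparison, a log2 mean of 5 that had to be reached in 1 genotype or the other. Perigonadal fat of 12 Control and 12 AdipoQ-LPL littermates of the C57BL/6 background was hybridised, an Affymetrix mouse array for each mouse. AdipoQ-LPL mice (labelled AdipoQ-LpL -/+) carried lipoprotein lipase, the enzyme that frees fatty acids from lipoprotein triglyceride, under the adiponectin promoter, which is active in adipocytes, and Control mice (AdipoQ-LpL -/-) did not. All 24 mice were switched at 9.5 weeks of age to a diet with 60% of its calories from fat and were studied after 10 days, so no mouse on chow was compared.

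In the integrated stress response, kinases that sense amino acid shortage, unfolded protein in the endoplasmic reticulum, double-stranded RNA or heme shortage phosphorylate the translation factor eIF2. General translation falls, while the Atf4 mRNA is translated more through its upstream reading frames, so the amount of ATF4 protein need not follow the amount of its mRNA, which is what an array measures. ATF4 binds DNA together with C/EBP family proteins and switches on genes of amino acid synthesis, amino acid uptake and tRNA charging, as well as Ddit3, Trib3 and Chac1. In fat the pathway is known from endoplasmic reticulum stress in obesity.

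ATF4 and C/EBP proteins meet on a composite site, the C/EBP-ATF response element, whose core can be written TGATGNAA, and the matches in the members' promoters are shown because this is the element through which ATF4 is known to act on its targets. RefSeq promoters of the build GRCm38.p6, running from 250 bases before the transcription start to 50 after it, were matched for 9 of the 10 genes (not for Slc7a5) and were searched on both strands. TGATGNAA stood in the promoters of 4 of these 9 genes, Asns, Chac1, Slc7a11 and Trib3, and in 3.97% of all 32851 promoters of the table. The 30 bases around each match are printed 5′ to 3′ in the direction of the gene, with the match in capitals, which reads as the reverse complement where the element lies on the opposite strand.
Asns: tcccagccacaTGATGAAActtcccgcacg
Chac1: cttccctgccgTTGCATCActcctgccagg
Slc7a11: cTGATGCAAacctggagaatTTGCATCAtc
Trib3: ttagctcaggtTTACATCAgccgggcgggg
Ppp1r15a: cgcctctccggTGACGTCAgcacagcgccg
The Asns window lies at chr6:7693214-7693243 on the minus strand, with the element 23 bases before the start of transcription. The Chac1 window lies at chr2:119351038-119351067 on the plus strand, with the element 193 bases before the start. Slc7a11 was the member with 2 matches, 66 and 47 bases before the start and pointing at each other, within chr3:50443651-50443680 on the minus strand. In Trib3 the match began 14 bases after the start, at chr2:152344028-152344057 on the minus strand. The promoter of Ppp1r15a had no TGATGNAA but had TGACGTCA, the cAMP response element that ATF and CREB proteins bind, 12 bases before the start (chr7:45526262-45526291, minus strand), which stood in 1.79% of all promoters and in no other member's. The windows of Atf4, Ddit3, Psat1 and Phgdh held neither run of letters, which says only that the letters are not in these 300 bases. Among genes related to the members, TGATGNAA stood in the promoters of 5 of the 12 cytosolic tRNA synthetase genes that had one in the table (Aars, Gars, Iars, Tars and Yars) and of 3 of 8 other ATF4 or CHOP targets (Fgf21, Nupr1 and Vldlr). It stood in 1 gene each of 7 of amino acid and one-carbon synthesis, of 5 transporters, of 5 bZIP and C/EBP partners, of 7 of eIF2 and eIF2B and of 14 chaperones of the endoplasmic reticulum, and in 0 of the 4 eIF2 kinases, 7 NRF2 targets, 10 immediate early genes and 6 heat shock genes.

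The arrays fell into 2 runs that follow the animal numbers of the labels. Run 1 (numbers 289 to 437) held 5 Control and 8 AdipoQ-LPL mice with array medians of 6.86 to 6.97, and run 2 (numbers 842 to 877) held 7 Control and 4 AdipoQ-LPL mice with medians of 7.22 to 7.29. Across the 20208 tested clusters the genotype difference had a median of -0.077 when run was ignored and of 0.007 with the run as a block, so the tested members are given over all mice, with the block and within each run, and other genes under the fits named beside them. In run 1 the mice numbered 422 to 437 were all AdipoQ-LPL, and within these 6 mice genotype and number cannot be told apart. The arrays of 4 mice (Control 3, Control 6, Control 7 and AdipoQ-LPL 8) correlated with those of their own run at a mean r under 0.97, and these 4 were high in 2 epithelial genes, with log2 values of Epcam, an epithelial adhesion protein, of 7.94 to 9.03 against 3.96 to 6.67 in the other 20, and of Pax8, a transcription factor of duct epithelium, of 8.33 to 8.84 against 4.41 to 6.89. Epcam and Pax8 are 2 of 6 epithelium genes named below. Over the 6, the mean log2 value was 6.35 to 9.27 in the 4 mice and 4.06 to 7.52 in the other 20, which overlapped. Control 11 (7.52) and AdipoQ-LPL 10 (6.89) lay above Control 6 (6.35). Adipocyte markers were present in every mouse, with a mean log2 value of 7 markers, adiponectin and perilipin 1 among them, between 11.95 and 12.45. In whole tissue, fewer cells of a type and less RNA per cell cannot be told apart. Differences are AdipoQ-LPL minus Control on the log2 scale, and tests are two-sided limma tests adjusted by the method of Benjamini and Hochberg over all tested clusters unless another is named.

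No member passed the adjusted test between genotypes. Over all mice 2 of 20208 clusters passed (0.0099%) and none of the 9 measured members did, with adjusted p-values from 0.691 to 0.975. With the run as a block again 2 clusters passed (0.0099%) and no member, the lowest adjusted p being 0.494 for Atf4. At an unadjusted p under 0.05, which 4.74% of clusters met with a lower value in AdipoQ-LPL mice, 3 members were lower, Atf4, Ddit3 and Slc7a5, and none was higher, as 0.891% of clusters were. With the block 2.5% of clusters were lower at an unadjusted p under 0.05, and 1 member was, Atf4, while 5.87% of clusters and no member were higher. The study's fold threshold together with an unadjusted p under 0.02 was met by 0.52% of clusters with a lower value in AdipoQ-LPL mice and by no member. Over all mice 7 of the 9 differences lay below 0, as did 79.7% of the differences of all 18665 tested genes, and with the block 3 lay below 0 and 6 above, where 46.3% of all genes lay below 0. The median difference of the 9 was -0.031 over all mice, 0.032 with the block, -0.025 within run 1 and 0.071 within run 2, beside -0.078, 0.007, -0.003 and 0.021 over all genes.

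**Figure D1:**
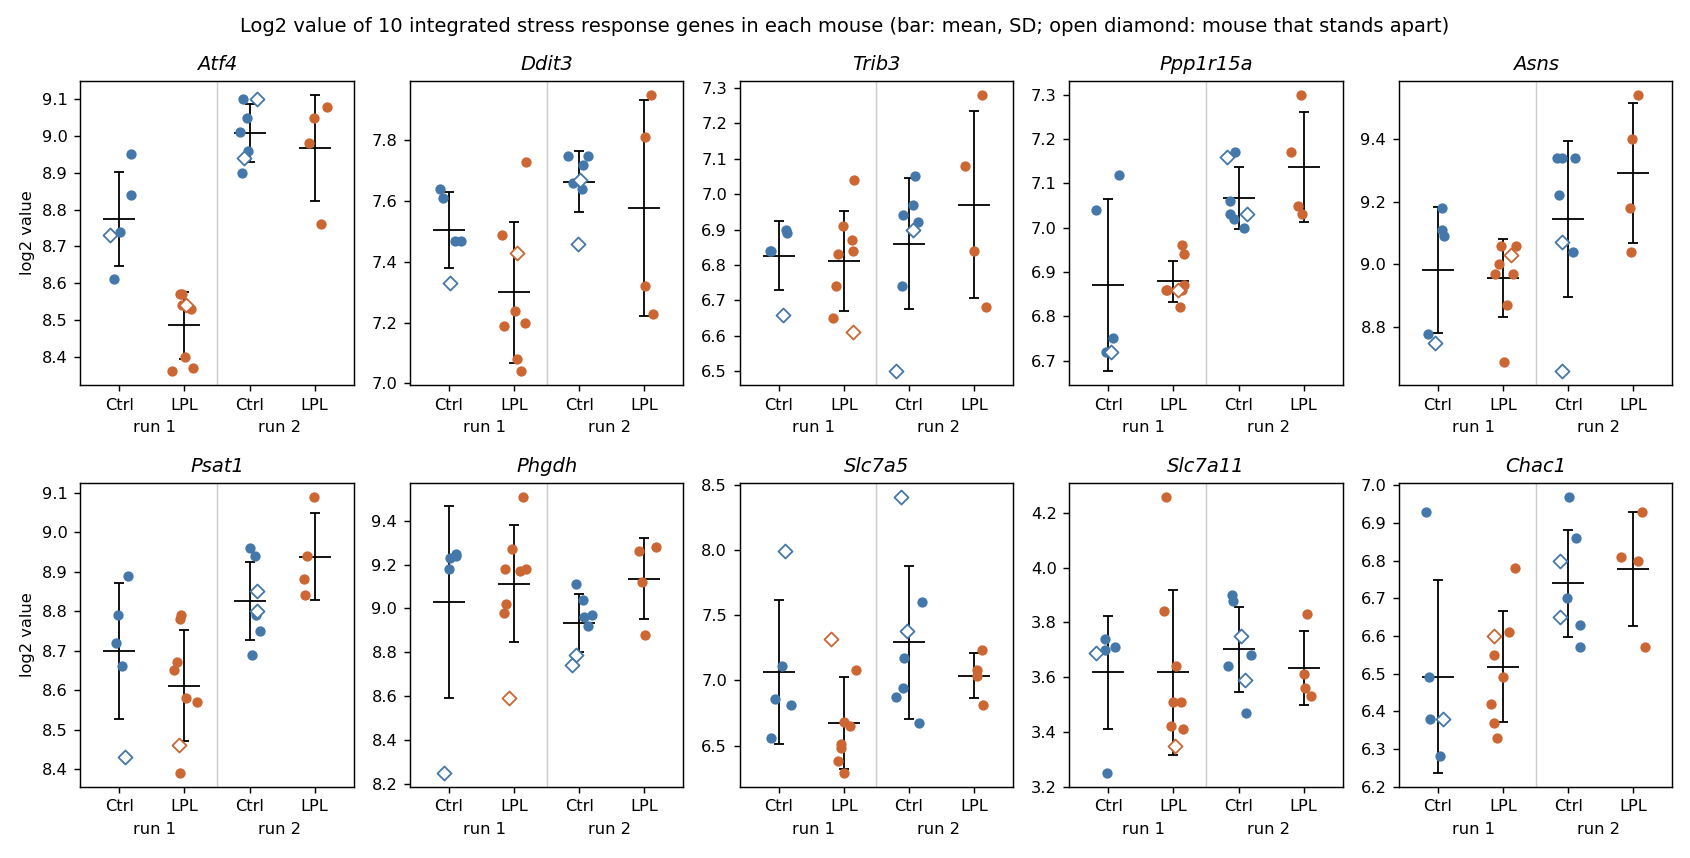
Log2 value (vertical axis) of each of the 10 genes in each mouse, by genotype within run 1 (left pair) and run 2 (right pair). Black bars are the mean and SD, and open diamonds are the 4 mice that stand apart. For Atf4 the 8 AdipoQ-LPL mice of run 1 lie at 8.36 to 8.57, below the 5 Control mice of that run at 8.61 to 8.95.

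Among the transcription factors, Atf4, the effector of the pathway, was lower in AdipoQ-LPL mice of run 1 in every mouse, and this was not seen in run 2. In the 5 Control mice of run 1 its log2 value was 8.74, 8.84, 8.73, 8.95 and 8.61 (mean 8.77 ± 0.13 SD, n = 5). The lowest, median and highest of the 8 AdipoQ-LPL mice of run 1 were 8.36, 8.54 and 8.57 (mean 8.48 ± 0.09 SD, n = 8). The groups of run 1 did not overlap, which held for 35 of the 20208 clusters in this direction (0.173%). The 2 AdipoQ-LPL mice of run 1 with numbers next to those of the Control mice, AdipoQ-LPL 5 and 6, had 8.57 and 8.37 and so lay below all Control mice of the run as well. The difference within run 1 was -0.29 (SE 0.06), with an exact permutation p of 0.00155, the smallest that 1287 relabellings of 5 and 8 mice can give. In limma within run 1 the adjusted p of Atf4 was 0.345, and by p it ranked 24th of 18665 genes.

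In run 2 the values of Atf4 in the 7 Control mice had a lowest of 8.90, a median of 9.01 and a highest of 9.10, and the 4 AdipoQ-LPL mice had 8.76, 8.98, 9.05 and 9.08. These groups overlapped, and AdipoQ-LPL 1 was the lone AdipoQ-LPL mouse below all Control mice. The difference was -0.04 (SE 0.07, exact permutation p = 0.564), and it became 0.03 without AdipoQ-LPL 1. Over all mice the 12 Control mice averaged 8.91 ± 0.16 (SD) and the 12 transgenic mice 8.65 ± 0.26 (SD) for Atf4, which differed by -0.27 (SE 0.09, unadjusted p = 0.00559, adjusted p = 0.691 by limma). With the run as a block it was -0.18 (SE 0.05, unadjusted p = 0.00242, adjusted p = 0.494 by limma), a level of 0.884 of that in Control. The test of whether the difference itself differed between the runs gave 0.25 (SE 0.09, unadjusted p = 0.0147, adjusted p = 0.603 by limma). Over all mice that interaction had an unadjusted p under 0.05 in 7.95% of clusters and an adjusted p under 0.05 in 0%, and Atf4 was the 1 member of 9 below the unadjusted threshold. Leaving out each mouse in turn kept the difference of Atf4 within run 1 between -0.33 and -0.24, and without the 2 mice of run 1 that stand apart it was -0.31.

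Ddit3, which encodes CHOP, a transcription factor that ATF4 induces and that can lead on to cell death, had lower values in most AdipoQ-LPL mice but with a wide spread. In run 1 the Control mice had 7.47, 7.47, 7.33, 7.61 and 7.64, and the AdipoQ-LPL mice had a lowest of 7.04, a median of 7.22 and a highest of 7.73. The groups overlapped, since 5 of the 8 AdipoQ-LPL mice lay below the lowest Control mouse while AdipoQ-LPL 5 lay above the highest. In run 2 the 7 Control mice kept to 7.46 to 7.75, and the 4 AdipoQ-LPL mice split into 7.23 and 7.32 below them and 7.81 and 7.95 above them. The difference was -0.20 (SE 0.09, unadjusted p = 0.0385, adjusted p = 0.691 by limma) over all mice and -0.15 (SE 0.08, unadjusted p = 0.0897) with the block. Within run 1 it was -0.20 (exact permutation p = 0.104), and within run 2 -0.08 (exact permutation p = 0.545).

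**Figure D2:**
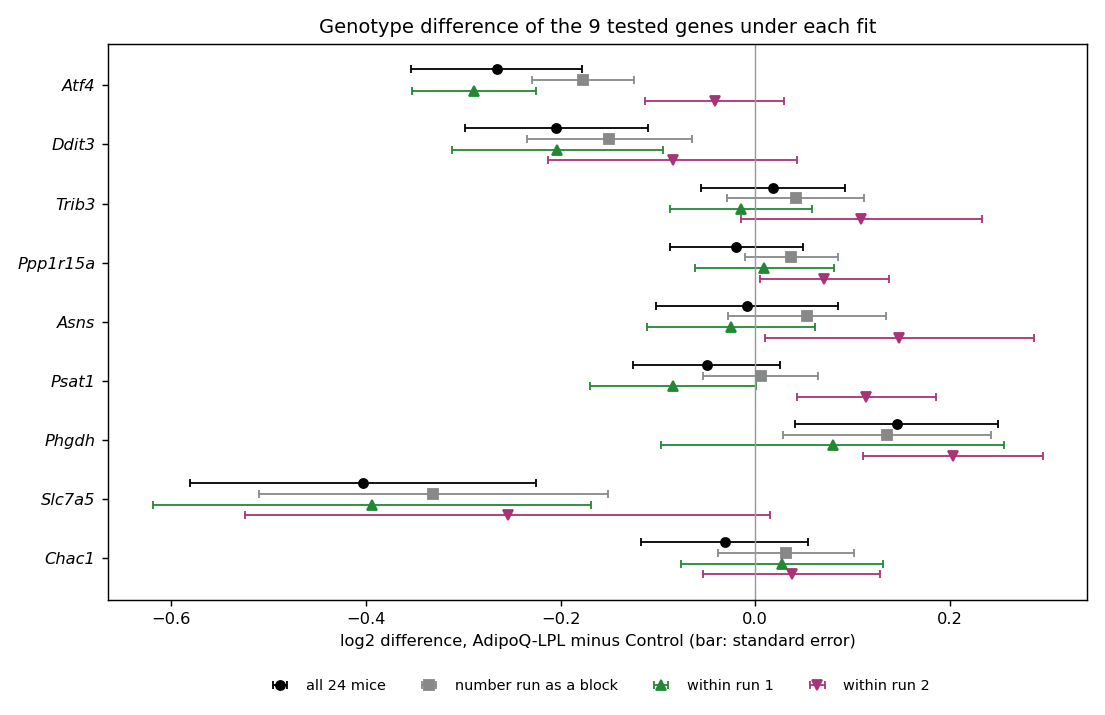
Log2 difference, AdipoQ-LPL minus Control (horizontal axis), of the 9 tested genes over all 24 mice, with the run as a block and within each run, with bars of 1 standard error. Atf4, Ddit3 and Slc7a5 lie below 0 under each of the 4 fits and Phgdh above 0, while Trib3, Ppp1r15a, Asns, Psat1 and Chac1 change side.

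The brakes of the pathway were Trib3, a pseudokinase that binds ATF4 and CHOP, and Ppp1r15a, which encodes GADD34, the inducible subunit that brings a phosphatase to phosphorylated eIF2. Trib3 averaged 6.85 ± 0.15 (SD) over the 12 Control and 6.86 ± 0.19 (SD) over the 12 transgenic mice, differing by 0.02 (SE 0.07, adjusted p = 0.922 by limma), by 0.042 with the block, by -0.014 within run 1 and by 0.11 within run 2. In run 1 its Control mice ranged from 6.66 to 6.90 around a median of 6.84, and the AdipoQ-LPL mice from 6.61 to 7.04 around 6.84. The groups of Trib3 overlapped in both runs, with 6.50 to 7.05 in the Control and 6.68 to 7.28 in the AdipoQ-LPL mice of run 2. Ppp1r15a had a difference of -0.02 (SE 0.07, adjusted p = 0.911 by limma) over all mice, 0.04 (SE 0.05) with the block, 0.0094 within run 1 and 0.071 within run 2. In run 1 the Control mice of Ppp1r15a fell into 6.72, 6.72 and 6.75 on one side and 7.04 and 7.12 on the other, and all 8 AdipoQ-LPL mice lay in the gap between, at 6.82 to 6.96. The higher of the Control mice were Control 4 and Control 1. In run 2 Ppp1r15a ran from 7.00 to 7.17 in Control and from 7.03 to 7.30 in AdipoQ-LPL mice.

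The genes of amino acid synthesis were Asns, which makes asparagine, and Phgdh and Psat1, the first and second enzymes of serine synthesis. Asns averaged 9.08 ± 0.24 (SD) over the 12 Control and 9.07 ± 0.23 (SD) over the 12 transgenic mice, differing by -0.01 (SE 0.09, adjusted p = 0.975 by limma) over all mice, 0.05 (SE 0.08) with the block and -0.025 within run 1. In run 1 the Control mice of Asns were at 8.78, 9.18, 8.75, 9.09 and 9.11, and the AdipoQ-LPL mice between 8.69 and 9.06 with a median of 8.99. In run 2 Asns ranged from 8.66 to 9.34 in Control and stood at 9.18, 9.04, 9.54 and 9.40 in AdipoQ-LPL mice, which gave 0.15 (exact permutation p = 0.339), or 0.04 without the 2 mice of run 2 that stand apart. The value of 8.66 belonged to Control 7, one of those 2.

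Psat1, like Trib3 and Asns, had differences of opposite sign in the 2 runs. In run 1 the lowest, median and highest of the 5 Control mice were 8.43, 8.72 and 8.89 and of the 8 AdipoQ-LPL mice 8.39, 8.62 and 8.79, and 6 of these 8 lay below the Control mean. In run 2 the AdipoQ-LPL mice had 8.88, 9.09, 8.94 and 8.84, all 4 above the Control mean of 8.83, while the Control mice ranged from 8.69 to 8.96. The differences were -0.08 (exact permutation p = 0.354) in run 1 and 0.11 (exact permutation p = 0.127) in run 2. The test of their difference gave 0.20 (SE 0.11, unadjusted p = 0.0944, adjusted p = 0.665 by limma). Without the 4 mice that stand apart it gave 0.24 (unadjusted p = 0.0437, adjusted p = 0.3285 by limma), so the change of sign passed neither test after adjustment.

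Phgdh was the member with the highest difference over all mice, 0.15 (SE 0.10, unadjusted p = 0.174, adjusted p = 0.691 by limma), and 0.14 (SE 0.11) with the block. In run 2 its Control mice ran from 8.74 to 9.11 with a median of 8.96, and the AdipoQ-LPL mice were at 8.88, 9.26, 9.12 and 9.28, 3 of the 4 above all Control mice. The difference there was 0.20 (exact permutation p = 0.0727), and 0.14 without the 2 mice of run 2 that stand apart. In run 1, 4 of the 5 Control mice lay within 9.18 to 9.25, and Control 3 lay far below at 8.25. With Control 3 the difference of run 1 was 0.08 and without it -0.12. The lowest AdipoQ-LPL mouse of run 1 was AdipoQ-LPL 8 at 8.59, and without both of these mice the difference was -0.04. Without the 4 mice that stand apart the difference of Phgdh was 0.07 (SE 0.08) over all mice and 0.04 (SE 0.06) with the block.

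Of the transporters, Slc7a5 (LAT1) is the light chain of a carrier that takes up large neutral amino acids. It had the largest negative difference of the members and the widest spread. It averaged 7.2 ± 0.56 (SD) over the 12 Control and 6.79 ± 0.35 (SD) over the 12 transgenic mice, differing by -0.40 (SE 0.18, unadjusted p = 0.0318, adjusted p = 0.691 by limma) and by -0.33 (SE 0.18, unadjusted p = 0.0779) with the block. The Control mice of run 1 had 6.56, 6.81, 7.99, 6.86 and 7.11, and the AdipoQ-LPL mice ran from 6.29 over a median of 6.58 to 7.32. The highest in each group were Control 3 and AdipoQ-LPL 8, which both stand apart. In run 2 the Control mice ran from 6.67 over 7.17 to 8.41, the last being Control 7, and the AdipoQ-LPL mice had 6.81, 7.08, 7.23 and 7.03. Both pairs of groups overlapped. The difference was -0.39 (exact permutation p = 0.163) within run 1 and -0.25 (exact permutation p = 0.467) within run 2. Without Control 3 the run 1 value was -0.16, and without Control 7 the run 2 value was -0.067. Without the 4 mice that stand apart the difference of Slc7a5 was -0.21 (SE 0.13) over all mice, -0.14 (SE 0.11) with the block, -0.26 within run 1 and -0.01 within run 2.

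Slc7a5 and Phgdh were set beside RNA of duct and ciliated epithelium in each mouse. Over 6 genes of such epithelium (Epcam, Pax8, Prom1, Sntn, Rsph4a and Stoml3, listed after the values had been seen), the mean log2 value was 6.35 to 9.27 in the 4 mice that stand apart and 4.06 to 7.52 in the other 20. Slc7a5 was at 7.32 to 8.41 in the 4 and at 6.29 to 7.60 in the 20, where the 7.60 belonged to Control 11, the mouse with the 7.52. Phgdh was at 8.25 to 8.79 in the 4 and at 8.88 to 9.51 in the 20. The 4 mice were set apart by the correlation of their whole arrays. The share of all clusters that part them from the 20 was not counted, so the gap is not read as particular to Phgdh. Control 11 of run 2 and AdipoQ-LPL 10 of run 1 had epithelium means of 7.52 and 6.89, above the 6.35 of Control 6 of run 2. Their Phgdh was at 9.04 and 8.98 against 8.79 in Control 6. Epcam and Pax8 were higher in Control 6, at 8.22 and 8.84. They were at 6.67 and 6.81 in Control 11 and at 5.93 and 6.89 in AdipoQ-LPL 10. Atf4 was at 8.54 to 9.10 in the 4 and 8.36 to 9.10 in the 20. By group the 6 epithelium genes had mean log2 values of 4.23 to 8.99 in Control and 4.06 to 8.30 in AdipoQ-LPL mice of run 1, and of 4.73 to 9.27 in Control and 4.62 to 4.87 in AdipoQ-LPL mice of run 2. All 6 of these genes had lower means in AdipoQ-LPL mice in both runs, none at an adjusted p under 0.05. Of all genes 51.1% lay below 0 in run 1 and 42.8% in run 2. Since the 6 were listed after the values had been seen, their count is not a test of genotype. Their part in the values of Slc7a5 and Phgdh was not tested.

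**Figure D3:**
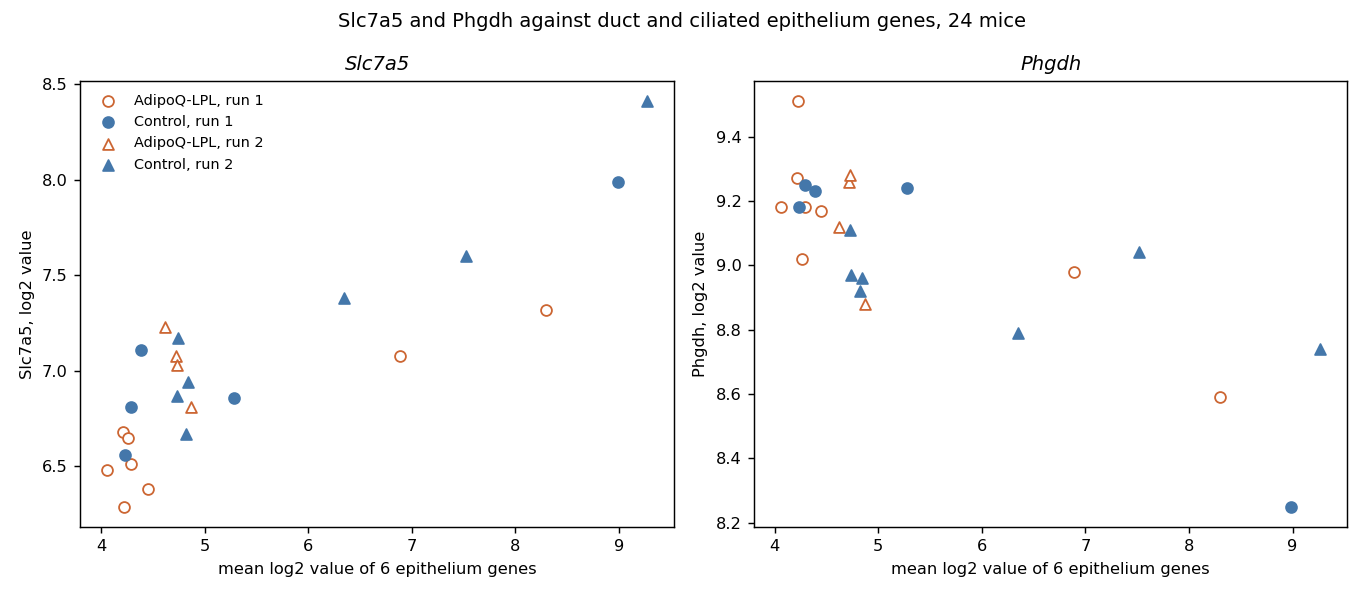
Log2 value of Slc7a5 (left) and Phgdh (right) on the vertical axes against the mean log2 value of 6 duct and ciliated epithelium genes on the horizontal axis, a point for each of 24 mice. Control 3 and Control 7, at 8.99 and 9.27 on the horizontal axis, have the highest Slc7a5 values, 7.99 and 8.41, and Control 3 has the lowest Phgdh, 8.25.

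Slc7a11, the cystine-glutamate exchanger xCT, was not measured above the low-value limit. Its 2 clusters had mean log2 values of 3.64 and 2.90 over all mice, and neither was tested. The higher cluster ran from 3.25 to 3.90 in Control and from 3.35 to 4.26 in AdipoQ-LPL mice, with the 4.26 in AdipoQ-LPL 7, and the genotypes had exact permutation p-values of 0.963 in run 1 and 0.473 in run 2. Chac1, which breaks down glutathione and is induced by ATF4 and CHOP, averaged 6.64 ± 0.23 (SD) over the 12 Control and 6.61 ± 0.19 (SD) over the 12 transgenic mice, differing by -0.03 (SE 0.09, adjusted p = 0.882 by limma) over all mice, by 0.03 (SE 0.07) with the block, by 0.028 within run 1 and by 0.037 within run 2. In run 1 the Control mice of Chac1 were at 6.93, 6.38, 6.38, 6.28 and 6.49, with Control 1 far above the rest, and the AdipoQ-LPL mice at 6.33 to 6.78. In run 2 the ranges were 6.57 to 6.97 and 6.57 to 6.93.

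The members differed in how much they varied between mice of a genotype and run. The SD within these groups was 0.11 for Atf4 and for Ppp1r15a, which 19.8% and 22.5% of the tested genes had a lower value than, and 0.46 for Slc7a5, which 96.3% had a lower value than. Phgdh (0.27), Ddit3 (0.21) and Asns (0.20) followed Slc7a5. Without the 4 mice that stand apart the SD fell to 0.27 for Slc7a5 and to 0.14 for Phgdh, while Ddit3 was at 0.22 and Atf4 at 0.11.

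Between the runs, 6 of the 9 members were higher in run 2 (Atf4, Ddit3, Ppp1r15a, Asns, Psat1 and Chac1) in a limma fit with genotype and run, beside 81.9% of all clusters higher in run 2 at an adjusted p under 0.05. The difference of Atf4 between runs was 0.35 (SE 0.05), that of Chac1 0.25 (SE 0.07) and that of Phgdh -0.04 (SE 0.11), while the median of all clusters was 0.33. On arrays centred on their median, where 33.3% of clusters still differed between runs, 3 members did, all lower in run 2. These were Phgdh with -0.39 (adjusted p = 0.00888 by limma), Trib3 with -0.26 (adjusted p = 0.00521) and Ppp1r15a with -0.13 (adjusted p = 0.0429), and the difference of Atf4 was then -0.0012 (adjusted p = 0.99). On the deposited values Ppp1r15a was higher in run 2, so its direction follows the scaling.

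Whether the members rose and fell together from mouse to mouse was examined within each run after the genotype mean had been removed. None of the 72 Pearson correlations (36 pairs in each of 2 runs) passed a permutation test after adjustment over all 72, and 1 Spearman correlation did. That was Psat1 with Phgdh in run 1, the pair that act one after the other in serine synthesis, with r = 0.82 (adjusted permutation p = 0.0691) and rho = 0.81 (adjusted permutation p = 0.0281) over 13 mice. Without the 4 mice that stand apart this pair no longer passed (rho = 0.81, adjusted permutation p = 0.374, 11 mice), and on centred arrays Ddit3 with Asns in run 1 passed as well (rho = 0.76, adjusted permutation p = 0.0101). Without the 2 mice farthest out in Psat1 the r of Psat1 with Phgdh was 0.75, and in run 2 it was 0.06 over 11 mice. Ddit3 with Asns had r = 0.57 and rho = 0.66 in run 1 and r = 0.72 and rho = 0.84 in run 2 (adjusted permutation p for r of 0.255 and 0.139, for rho 0.133 in both), and without the 2 mice farthest out r was 0.57 and 0.89. Phgdh with Slc7a5 had the strongest correlation, r = -0.90 and rho = -0.65 in run 1 (adjusted permutation p of 0.0634 and 0.354), and this became -0.61 without Control 3 and AdipoQ-LPL 8, so that its size rested on those mice. Atf4 with Ddit3 had 0.39 in run 1 and 0.70 in run 2, and Atf4 with Psat1, Slc7a5 and Chac1 lay between -0.19 and 0.07 in both runs. A positive r was found for 22 of the 36 pairs in run 1 and 13 in run 2, and 10 pairs were positive in both.

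**Figure D4:**
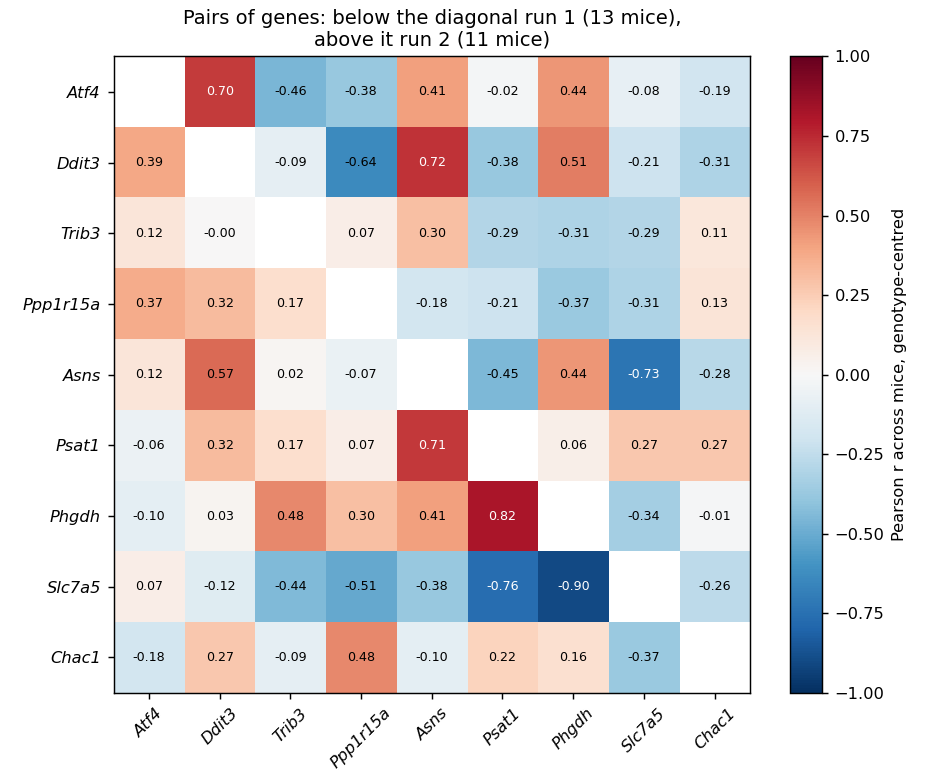
Pearson r of each pair of the 9 tested genes across mice, on values with the genotype mean removed, as colour and number, below the diagonal for the 13 mice of run 1 and above it for the 11 mice of run 2. Psat1 with Phgdh is at 0.82 in run 1 and 0.06 in run 2, and Ddit3 with Asns at 0.57 and 0.72.

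The genes whose pattern over mice was most like that of Atf4, by the mean of the Pearson r within the 2 runs among 18664 genes, were Mapk6, an atypical MAP kinase (0.73 in run 1 and 0.78 in run 2), Yipf6 (0.67 and 0.81), Eaf1 (0.54 and 0.83), Mir5099 (0.76 and 0.60) and Gin1 (0.57 and 0.77). Of the members, Ddit3 ranked 100th by this measure and Asns 2101st, while Chac1 ranked 14197th. For Asns the nearest genes were Slc16a7, a monocarboxylate transporter (0.91 in both runs), Mccc1, a subunit of the enzyme of leucine breakdown (0.86 and 0.91), Pde3b, the phosphodiesterase through which insulin restrains lipolysis (0.85 and 0.91), Ptp4a1 (0.86 and 0.89) and Bckdhb, a subunit of the branched-chain ketoacid dehydrogenase (0.78 and 0.95). Of the members, Ddit3 ranked 364th for Asns and Slc7a5 17851st. These likenesses are descriptions over 13 and 11 mice. Without the 4 mice that stand apart, Mapk6 and Yipf6 remained among the 5 nearest to Atf4, and Mccc1, Pde3b and Bckdhb among the 5 nearest to Asns.

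The pathway around the members was described by 11 lists of 110 genes, of which 109 were tested. No list gene passed the adjusted test over all mice or with the block (lowest adjusted p of 0.691 and 0.494 by limma), and at an unadjusted p under 0.05 15 of the 109 were lower (beside 4.74% of all clusters) and 0 higher over all mice, and 8 lower (beside 2.5%) and 2 higher (beside 5.87%) with the block. Of all genes 51.1% lay below 0 in run 1 and 42.8% in run 2, beside which the counts of the lists are to be read. The 4 kinases of eIF2, which start the response, had differences with the block of -0.07 to 0.08, among them Eif2ak3, the kinase PERK of the endoplasmic reticulum, with 0.02, and Eif2ak4, the amino acid sensor GCN2, with -0.07. Of 9 genes of eIF2, its exchange factor eIF2B and the constitutive phosphatase subunit, 8 lay below 0 in run 1 (median -0.06) and 0 of 9 in run 2 (median 0.06), and 1 of the 9 had an interaction at an unadjusted p under 0.05, which 7.95% of all clusters had.

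Each of 6 bZIP and C/EBP partners of ATF4 had differences of opposite sign in the 2 runs. An interaction at an unadjusted p under 0.05 was found for 3 of them, Cebpb, Cebpg and Atf5, beside 7.95% of all clusters. Cebpg, which pairs with ATF4 on the composite element, ran from 9.01 to 9.35 in Control and from 8.92 to 9.17 in AdipoQ-LPL mice of run 1, a difference of -0.18, and had 0.08 in run 2 (unadjusted interaction p = 0.0168 by limma). Cebpb ran from 7.01 to 7.55 in Control and from 6.77 to 7.13 in AdipoQ-LPL mice of run 1, a difference of -0.29, and had 0.09 in run 2 (unadjusted interaction p = 0.0136). The groups of both genes overlapped in both runs, and neither interaction passed after adjustment. Atf3, a stress-induced partner, had -0.12 over all mice, 0.02 in run 1 and -0.14 in run 2. Atf5 had -0.10, -0.06 and 0.16 (unadjusted interaction p = 0.043, adjusted p = 0.625 by limma).

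Of 9 further genes of amino acid and one-carbon synthesis, 7 lay below 0 over all mice and 6 with the block, with a median of -0.08 with the block. Cth, cystathionine gamma-lyase, which makes cysteine, had -0.44 (unadjusted p = 0.00482, adjusted p = 0.691 by limma) and -0.37 with the block, with -0.40 in run 1 and -0.33 in run 2. Its values of 7.73 to 8.46 in Control and 6.96 to 7.99 in AdipoQ-LPL mice of run 1 overlapped. Psph, the last enzyme of serine synthesis, had -0.14 in run 1 and 0.12 in run 2, and the mitochondrial one-carbon enzymes Shmt2 and Mthfd2 had -0.08 and -0.13 with the block.

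Of 6 tested amino acid transporter genes out of 7 listed, 3 lay below 0 with the block. Slc3a2, the heavy chain that pairs with Slc7a5 and Slc7a11, had 0.02 over all mice and 0.05 with the block. Slc7a1, a transporter of arginine and lysine, had -0.32 (unadjusted p = 0.0182, adjusted p = 0.691 by limma) over all mice, -0.10 in run 1 and -0.28 in run 2. In run 2 its 4 AdipoQ-LPL mice lay at 7.39 to 7.47, within the Control range of 7.33 to 8.06. Slc38a2, the transporter SNAT2, had -0.19 over all mice and -0.13 with the block.

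Of the 20 cytosolic tRNA synthetase genes, which charge tRNA with amino acids and are ATF4 targets in large part, 18 lay below 0 in run 1 with a median of -0.07, and 8 in run 2 with a median of 0.03. With the block 16 lay below 0, within -0.14 to 0.04 and with a median of -0.04, beside a median of 0.007 over all genes. The lowest p was that of Cars, the cysteinyl synthetase, at -0.22 over all mice (unadjusted p = 0.00863, adjusted p = 0.691 by limma), -0.14 in run 1 and -0.15 in run 2. Aars, Gars, Nars and Sars had -0.11, -0.07, -0.14 and -0.09 in run 1, and 0.02, 0.07, 0.07 and 0.05 in run 2.

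Of 11 other ATF4 or CHOP targets, 9 lay below 0 in run 1 (median -0.08) and 3 in run 2 (median 0.06). Ddit4, which encodes REDD1, an inhibitor of mTORC1, had -0.38 (unadjusted p = 0.00445, adjusted p = 0.691 by limma) over all mice and -0.30 with the block. Its Control mice of run 1 ran from 7.44 to 7.99 and its AdipoQ-LPL mice from 6.85 to 7.47, so the groups met at a narrow overlap, and the difference was -0.48 in run 1 and -0.09 in run 2. Sesn2, Nupr1 and Vldlr had 0.05, 0.01 and -0.03 with the block.

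Lists of neighbouring stress responses were read beside these. Of 16 chaperone and folding genes of the endoplasmic reticulum, 7 lay below 0 with the block, within -0.10 to 0.10, and Hspa5, the chaperone BiP, had -0.17 over all mice and -0.06 with the block. Of 10 targets of NRF2, the antioxidant transcription factor, 7 lay below 0 with the block, and Osgin1 had -0.34 (unadjusted p = 0.00601, adjusted p = 0.691 by limma) over all mice. Osgin1 was the 1 list gene of 109 whose groups did not overlap in run 1 in this direction (beside 0.173% of all clusters), at 7.74 to 8.16 in Control and 7.12 to 7.71 in AdipoQ-LPL mice, with a difference of -0.43 there, -0.01 in run 2 and -0.24 with the block. Of 12 immediate early genes, which rise with handling and activation, 7 lay below 0 with the block, and Fos had -0.14 over all mice and -0.01 with the block. Of 6 heat shock genes 5 lay below 0 with the block, with Hsph1 at -0.37 over all mice (unadjusted p = 0.0098, adjusted p = 0.691 by limma) and -0.30 with the block.

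**Figure D5:**
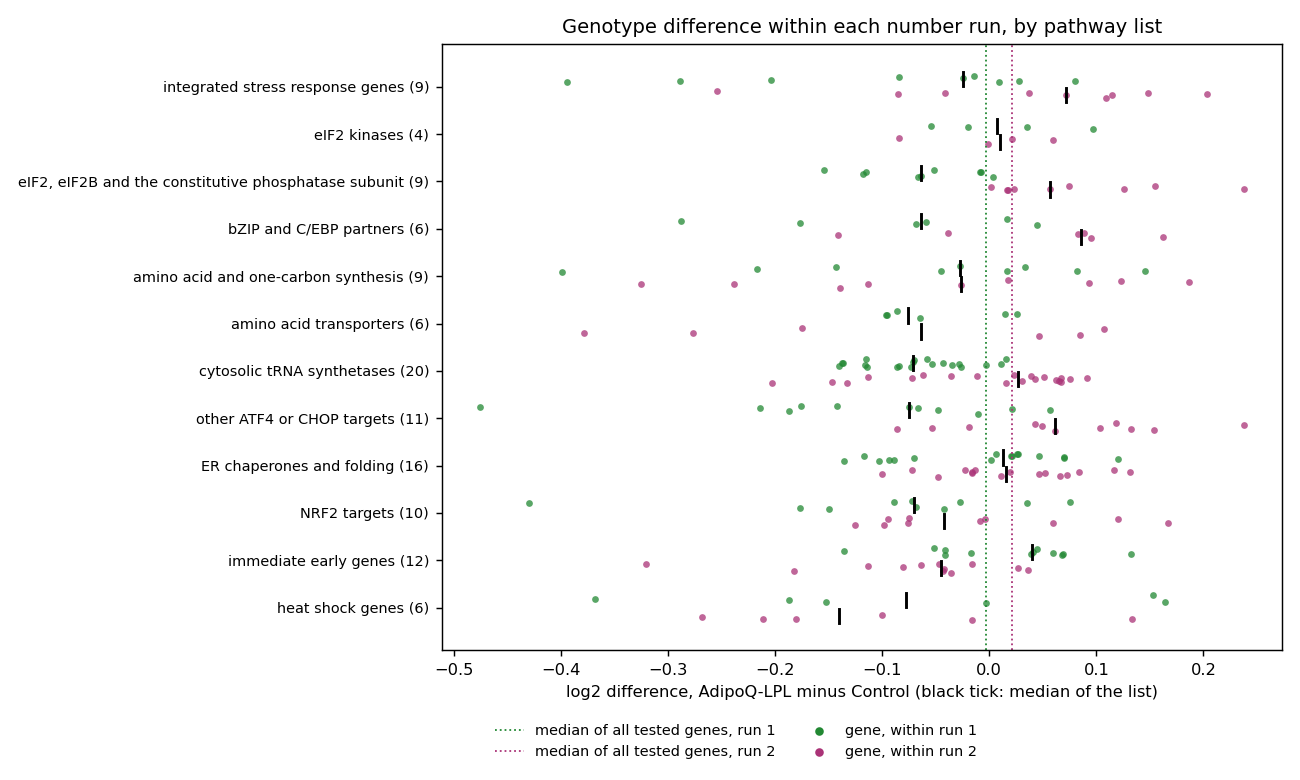
Log2 difference, AdipoQ-LPL minus Control (horizontal axis), of each tested gene within run 1 and within run 2, for the 9 tested members and for the 11 pathway lists (number of genes in brackets), with black ticks at each median and dotted lines at the medians of all genes. The tRNA synthetase genes have a median of -0.07 in run 1 and 0.03 in run 2.

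Markers of 11 cell types or tissues that the fat could hold were read as well, and no marker passed the adjusted test over all mice or with the block. The macrophage markers had a higher mean in AdipoQ-LPL mice with the block for all 6 of 6 genes, at a median of 0.23, with none at an adjusted p under 0.05. Their mean log2 value per mouse ran from 8.96 to 9.78 in Control and from 9.63 to 10.26 in AdipoQ-LPL mice of run 1, and from 9.42 to 9.91 and 9.59 to 9.93 in run 2, and their part in the lower Atf4 of run 1 was not tested. Other marker lists are also given by run, although no interaction of genotype with run passed the adjusted test. Mesothelium markers lay above 0 in 5 of 5 genes in run 1 (median 0.34) and below 0 in 5 of 5 in run 2 (median -0.18), as macrophage markers had a median of 0.34 in run 1 and 0.11 in run 2. Epididymis markers had a median of -0.86 over 4 tested genes in run 1 and 0.02 in run 2. In run 1 the mean log2 value of that list per Control mouse ran from 4.67 over a median of 4.95 to 6.88, the last in Control 5. In AdipoQ-LPL mice of run 1 it ran from 4.49 to 4.88. In Control mice of run 2 it ran from 4.84 over a median of 5.31 to 6.77, the last in Control 6. In AdipoQ-LPL mice of run 2 it ran from 5.28 to 5.52. Crisp1, the 1 gene of the list below 0 in run 2, had -0.78 in run 1 and -1.63 in run 2. B cell markers lay below 0 in 4 of 4 genes with the block (median -0.21) and in run 2 (median -0.62), and in 0 of 4 in run 1 (median 0.18). The part of these lists in the differences of the members was not tested.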

How the data were processed

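RNA of perigonadal fat from 24 mice was hybridised to Affymetrix mouse exon arrays. Values deposited by the authors are RMA-normalized log2 signals for 41345 transcript clusters, 27037 of them with a symbol. For RMA and Partek, which the submitters' processing notes name, no version is given here. The deposited workbook gave the symbols, and its columns of the authors' comparisons (group means, p-values, ratios, fold changes, splicing) were not used.

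The 20208 named clusters whose log2 mean reached 5 in 1 genotype or the other were tested with limma 3.58.1 (R 4.3.3), two-sided, with a threshold of 0.05 on the adjusted p. A gene with several clusters was read from that of highest mean. Exact permutation tests used every relabelling within a run, and correlations 100000 permutations within genotype (Python 3.11.15, numpy 2.4.6, scipy 1.17.1, pandas 2.3.3, matplotlib 3.10.9). On simulated data over 20208 clusters, limma found 44 of 100 clusters shifted by 0.5 without the run in the model and 89 with it, and 10 and 64 of 100 shifted by 0.3. It also called 1 and 8 clusters that had not been shifted. The simulated noise was normal and independent between clusters and mice, so it held no arrays that stand apart, and recovery on the real arrays may differ. Precision is limited by the 24 arrays. Each mouse is a separate animal, so the tests measure the spread between mice. In the fit over all mice, which has no term for the run, that spread also holds the shift between the runs.

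The members and lists were chosen with earlier results of these data known. Named genes were the 10 members, the first 4 genes and the 2 of lowest p of each pathway list (a part of them is given by value), and the 5 genes most like Atf4 and Asns. Markers of 11 cell types or tissues were read per mouse, and the epithelium list was added after the values had been seen. Alternatives were the run as a block, each run alone, a replicate block, limma with array weights or a trended, robust prior, the methods' t-test, centred or quantile-normalized arrays, no low-value limit, the mean over clusters, omission of the mice numbered 422 to 437 or of each mouse in turn, and, chosen after seeing the data, omission of the 4 mice that stand apart. Shared replicate numbers did not pair the mice.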

Additional observations from a re-analysis of the deposited data

Results flagged for a closer look

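Within genotype and run, each of the 10 genes was examined in groups of 4 to 8 mice for a mouse far from the others (Dixon's gap over the range of the group). Of 40 groups, 4 held such a mouse, while chance gives about 1 in 20. Phgdh was 8.25 in Control 3, where the other 4 Control mice of run 1 were at 9.18 to 9.25. Trib3 was 6.66 in the same mouse, with the others at 6.84 to 6.90. Ddit3 was 7.46 in Control 7, with the other 6 Control mice of run 2 at 7.64 to 7.75. Slc7a11, below the low-value limit, was 3.25 in Control 4, with the others at 3.69 to 3.74. Control 3 and Control 7 were the mice with the most RNA of duct and ciliated epithelium in their runs, and the part of that RNA in these values was not tested.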

How the results depend on the processing

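Atf4, Ddit3 and Slc7a5 kept their sign under the alternatives run, except that without AdipoQ-LPL 1 Atf4 was 0.027 and Ddit3 0.031 within run 2. Their size did not hold throughout. For animal numbers 289 to 295 alone Atf4 was -0.31 (SE 0.11), Ddit3 -0.015 (SE 0.15) and Slc7a5 -0.57 (SE 0.34). Without numbers 422 to 437 and with the block Atf4 was -0.14 (SE 0.07), Ddit3 -0.06 (SE 0.10) and Slc7a5 -0.37 (SE 0.22). The number of members called stayed at 0 except with limma's array weights, which called 8 members among 14984 clusters, with 6784 at the study's thresholds, and moved the median difference of all clusters to -0.26. The numbers of clusters called over all mice and at the study's thresholds (2 and 118) became 0 and 84 with the replicate block, where 1 of 12 pairs of equal number correlated above 0.1, so no pairing was used. The first number was 1 within run 2, with or without the mice that stand apart, 1 with the methods' t-test (which gave 3 members at an unadjusted p under 0.05 and 0 after adjustment), and 0 for animal numbers 289 to 295 alone and without the 4 mice that stand apart. The second number was 55 with the run as a block, 220 and 310 within runs 1 and 2, 47 without the 4 mice, 46 without them and with the block, and 244 and 422 without them within runs 1 and 2. Leaving out a mouse at a time from the fit over all mice gave 2 to 3 clusters called, 0 members, and for the study's thresholds 71 (without AdipoQ-LPL 11) to 255 (without Control 1). With the block it gave 2 to 4 clusters called and 36 (without Control 3) to 98 (without Control 1), and within the run 0 to 7 (7 without AdipoQ-LPL 5) and 161 (without Control 2) to 467 (without AdipoQ-LPL 3). On centred arrays 3 members differed between runs in place of 6.

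The other signs turned as follows, all on the log2 scale and none with a call. With the run as a block Ppp1r15a was 0.037, Asns 0.053, Psat1 0.0057 and Chac1 0.032. Within run 1 Trib3 was -0.014, Ppp1r15a 0.0094 and Chac1 0.028, and within run 2 Ppp1r15a was 0.071, Asns 0.15, Psat1 0.11 and Chac1 0.037. On centred arrays Ppp1r15a was 0.054, Asns 0.066, Psat1 0.024 and Chac1 0.042, and after quantile normalization 0.082, 0.077, 0.043 and 0.058. With animal numbers 289 to 295 alone Trib3 was -0.018, Ppp1r15a 0.0297, Asns 0.033, Psat1 0.025 and Chac1 0.082. Without numbers 422 to 437 and with the block Ppp1r15a was 0.056, Asns 0.11, Psat1 0.082 and Chac1 0.053. Trib3 was -0.036 with array weights. Without the 4 mice Trib3 was -0.011, with the block as well Ppp1r15a 0.024 and Chac1 0.0077, within run 1 Trib3 -0.027 and Phgdh -0.0400, and within run 2 Ppp1r15a 0.082, Asns 0.036, Psat1 0.11 and Chac1 0.0303. With 1 mouse left out Trib3 ranged from -0.019 to 0.042 and Asns from -0.051 to 0.027. The cause of these changes was not tested.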
